A study of Mus musculus with 8 samples.

Results

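Both Gtf2i mutant embryonic stem (ES) cell lines of this series were set directly against each other. Gtf2i encodes TFII-I, a transcription factor that binds initiator and E-box sequences and whose locus falls within the Williams-Beuren syndrome deletion. The comparison was chosen by array title, and it used 4 of the 8 arrays of the series: 2 of the exon 2 mutant line and 2 of the trap line. The exon 2 mutant was a gene-targeted line derived from R1 ES cells, heterozygous for a deletion of exon 2 (Δexon2/+) and with no Hprt mutation in its labels. The trap line was a gene-trap derivative of AB2.2 ES cells with the genotype HPRT -/-:GTF2I +/-. A gene trap is an inserted cassette that captures splicing of the host gene and cuts its transcript short. The 2 wild-type arrays and 2 arrays of an HPRT -/- line served to estimate the spread between replicates and are given beside the results as levels. All cells were grown on a monolayer of feeder cells in Knockout DMEM with serum replacement and leukaemia inhibitory factor (LIF), and total RNA was hybridised to Affymetrix arrays.

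The arrays compared differ in more than the Gtf2i allele. The parental line (R1 or AB2.2), the Hprt genotype, the way the allele was made and any batch are tied to the line, since the exon 2 mutant arrays carry later accession numbers than the rest and the labels name no batch. These cannot be told apart from the allele in this comparison. Each genotype is represented by 1 line, and the labels call its 2 arrays biological replicates but do not say whether separate cultures were used. The p-values therefore measure only the spread between arrays of a line, which may be technical. In bulk RNA of this kind, fewer cells of a type and less RNA per cell cannot be told apart.

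Mouse ES cells hold a pluripotency network centred on the transcription factors Pou5f1, Sox2 and Nanog. LIF, acting through STAT3, and bone morphogenetic proteins (BMPs), acting through the Id genes, support self-renewal, whereas FGF signalling through ERK and Nodal signalling are linked to the step towards the primed, epiblast-like state. TFII-I takes part in signal-dependent transcription, in the endoplasmic reticulum (ER) stress response and in cell cycle control, and its haploinsufficiency is linked to the behavioural features of Williams-Beuren syndrome.

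Values are log2 intensities, 1 probe set per gene, and every difference below is the exon 2 mutant mean minus the trap line mean, so that a positive value is higher in the exon 2 mutant. A difference of 1 is a factor of 2. Of 13819 genes tested, 6798 passed an adjusted p of 0.05 (limma, Benjamini-Hochberg), which is 49.2% of them: 3386 genes (24.5%) were higher in the exon 2 mutant and 3412 (24.7%) were lower. The median over all genes was −0.01. Differences of at least 2-fold were found for 257 genes in the higher direction (1.86%) and 296 in the lower (2.14%). The 2 arrays of one line lay wholly above or below those of the other for 10205 genes (73.8%). Each count of a gene group below is therefore to be read against a background in which about every second gene passed. The lines differed broadly, but arrays of one line correlated at 0.9966 to 0.998 over all genes, and arrays of the different mutant lines at 0.9736 to 0.9744.

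**Figure D1:**
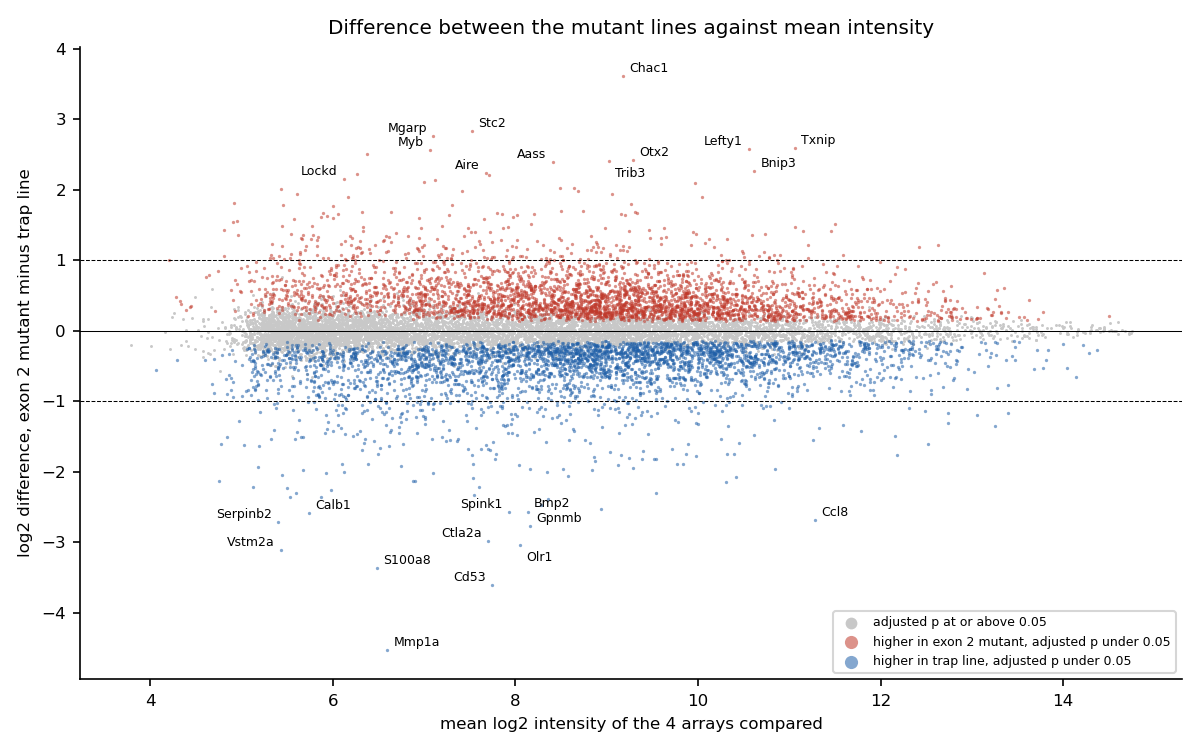
Log2 difference between the exon 2 mutant and the trap line (vertical axis) against the mean log2 intensity of the 4 arrays compared (horizontal axis), 1 point per gene tested. Red points are higher and blue points lower in the exon 2 mutant at an adjusted p under 0.05, the dashed lines mark a 2-fold difference, and the 12 largest differences in each direction, leaving out clone and predicted gene names, are named, from Chac1 at 3.62 to Mmp1a at −4.53.

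The targeted genes were examined first. The Gtf2i probe set read 10.45 and 10.51 in the exon 2 mutant and 10.11 and 10.07 in the trap line. The exon 2 mutant was higher by 0.39 ± 0.05 (SE of the fit, 1.31-fold, adjusted p = 0.000826), with no overlap of the arrays. Wild-type cells, at 10.12, lay next to the trap line, and the HPRT -/- line stood above both mutants at 10.90. A second Gtf2i probe set also read higher in the exon 2 mutant, with means of 8.41 in the exon 2 mutant, 7.92 in the trap line, 7.77 in wild-type and 9.10 in the HPRT -/- line, and a difference of 0.49 ± 0.07 (adjusted p = 0.00154 in a fit of all probe sets). Wild-type cells were below the trap line on this probe set and level with it on the first. The other 2 Gtf2i probe sets were below the intensity needed for testing. Where the probes lie relative to exon 2 or the trap insertion was not analysed here, so these values do not check either allele.

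Hprt, the purine salvage enzyme whose loss is selected for in thioguanine, separated the lines as labelled. Its level was 12.25 on both exon 2 mutant arrays against 10.76 and 10.72 in the trap line, a difference of 1.51 ± 0.05 (2.84-fold, adjusted p = 5.4e-06). Wild-type cells stood at 12.08 and the HPRT -/- line at 10.04. The trap line thus kept a higher Hprt signal than the HPRT -/- line, by these means, while both were below the lines with intact Hprt. The part of feeder RNA in the Hprt signal was not tested, and the feeder markers are given below.

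The Gtf2i paralogues showed little. Gtf2ird1 was higher by 0.28 ± 0.06 (adjusted p = 0.00502), from 9.60 and 9.51 in the trap line to 9.86 and 9.82 in the exon 2 mutant, but its second probe set read −0.29 (adjusted p = 0.112 in the fit of all probe sets) and the mean of its probe sets was −0.0015. Gtf2ird2 differed by 0.01 ± 0.08 (adjusted p = 0.937), and the sign turned under another scaling. Among 25 tested genes of the Williams-Beuren interval and its flanks on chromosome 5, 12 were higher and 5 lower, with a median of 0.14 that fell to 0.03 with the mean of a gene's probe sets. Tbl2 (0.77, or 0.30 with the mean of its probe sets, of which the other 3 read 0.07 to 0.23 and did not pass), the syntaxin Stx1a (0.68), the carbohydrate-response factor Mlxipl (0.59) and the replication factor Rfc2 (0.51) were the largest, and the claudin Cldn4 was lower (−0.60). The Mlxipl signal was below the filter level in the trap line, and its call was lost without exon 2 mutant replicate 2 (adjusted p = 0.0769), trap replicate 1 (0.0644) or trap replicate 2 (0.0794).

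Cell type markers were read on every array before the gene groups. The defining ES cell markers were high in both lines: Pou5f1 stood at 13.02 and 13.08 in the exon 2 mutant and 13.03 and 12.99 in the trap line, a difference of 0.04 with a 95% interval from −0.09 to 0.18 (adjusted p = 0.573). Zfp42 differed by 0.08 (−0.05 to 0.21, adjusted p = 0.253) and Sox2 by 0.17 (−0.03 to 0.36, adjusted p = 0.143). Nanog was lower, at 12.28 and 12.15 against 12.44 and 12.50 (−0.25 ± 0.06, adjusted p = 0.0143). Over the 9 ES cell markers the median difference was 0.01.

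Feeder fibroblast markers were abundant on all 4 arrays compared. The mean log2 level of the 34 markers on the array was 11.23 and 11.26 in the exon 2 mutant and 11.43 and 11.44 in the trap line, with none of the 6 defining markers near the floor. In wild-type cells it was 12.08 and 12.09, and in the HPRT -/- line only 7.76 and 7.71. Between the mutants 11 markers were higher and 19 lower, with a median of −0.19. The direction was mixed within the defining markers: the collagens Col1a1 (0.84) and Col1a2 (0.21) were higher, Lum (−0.23), Dcn (−1.16) and Prrx1 (−0.35) were lower, and Col3a1 differed by 0.11, short of the threshold. Contractile genes such as calponin Cnn1 (1.13) were higher in the exon 2 mutant, whereas Timp3 (−1.82), S100a4 (−1.30) and Twist2 (−1.02) were lower. The feeder markers thus differed between the lines in both directions, and the part of feeder RNA in the results below was not tested.

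Other cell types were near the floor or modest. Primitive endoderm markers were lower, with a mean level of 6.10 and 6.22 against 6.81 and 6.84 and 4 of 6 past the threshold. Of the 5 blood or macrophage markers, Lyz2 (−0.95), Adgre1 (−0.50) and Cd68 (−0.35) were lower, Csf1r differed by 0.01 and Ptprc was below the filter level. Of the 4 endothelial markers, Pecam1, which ES cells also express, was higher by 1.03, Kdr was lower (−0.47), Tek differed by 0.07, short of the threshold, and Cdh5 was below the filter level. None of the 5 trophoblast markers passed the threshold (limma; 0 at an unadjusted p under 0.05), and 3 of them were below the filter level.

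**Figure D2:**
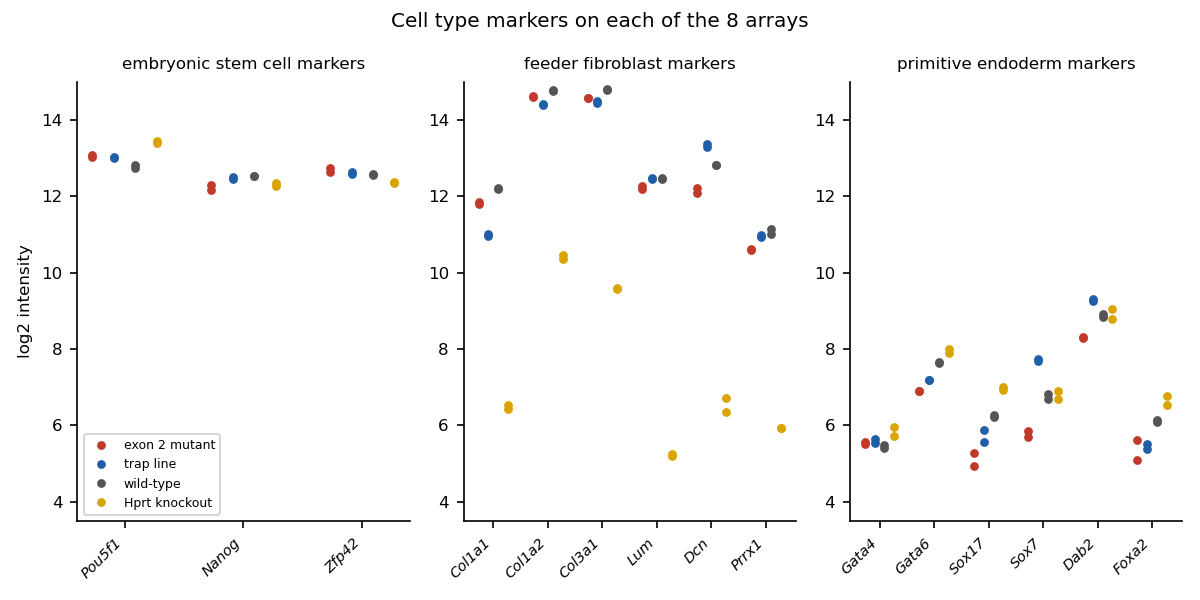
Log2 intensity (vertical axis) of the defining ES cell and feeder fibroblast markers and of 6 primitive endoderm markers on each of the 8 arrays, 1 point per array, coloured by group. Pou5f1, Nanog and Zfp42 lie above 12 in every group, and the feeder markers of the mutant lines and wild-type cells lie far above those of the HPRT -/- line.

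The largest difference in the higher direction was Chac1, which encodes a glutathione-degrading enzyme and is a target of the amino acid stress factor ATF4. It read 11.002 and 10.97 in the exon 2 mutant and 7.40 and 7.34 in the trap line, a difference of 3.62 ± 0.08 (12.3-fold, adjusted p = 3.54e-06). Wild-type cells were at 7.30, next to the trap line, and the HPRT -/- line at 10.46. Because Chac1 carries the largest difference and belongs to the group that moved most, the 250 bases before its RefSeq start site are shown (GRCm38.p6, chr2:119350992-119351241, plus strand). The capitals mark the reverse complement of TGATGNAA, the core of the C/EBP-ATF response element to which ATF4 binds, starting 193 bases before the start site.
Chac1: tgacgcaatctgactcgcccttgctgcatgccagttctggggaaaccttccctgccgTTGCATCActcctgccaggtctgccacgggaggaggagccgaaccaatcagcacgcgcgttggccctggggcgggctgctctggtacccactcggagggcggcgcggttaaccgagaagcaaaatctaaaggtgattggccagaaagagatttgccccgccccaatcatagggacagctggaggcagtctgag

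The amino acid stress group, which holds ATF4 and its targets in amino acid transport, serine and asparagine synthesis and tRNA charging, was higher in the exon 2 mutant almost throughout. Of 32 genes tested, 29 were higher and 1 lower, with a median of 0.82, against 24.5% and 24.7% of all genes and a median of −0.01. The secreted glycoprotein Stc2 rose from 6.18 and 6.04 in the trap line to 8.99 and 8.88 (2.83 ± 0.07, 7.11-fold). Its 2 other probe sets read 1.20 and 0.87, and the mean of all was 1.63. Trib3, a pseudokinase that restrains ATF4, was at 10.33 and 10.13 against 7.83 and 7.81 (2.41 ± 0.07). The alanine transaminase Gpt2 (2.03), the cationic amino acid carrier Slc7a1 (1.41) and the stress sensor Sesn2 (0.62) were also higher. The Sesn2 call was lost without exon 2 mutant replicate 2 (adjusted p = 0.0508) or trap replicate 1 (0.0617). The exception was Cebpb, at −0.41. In the HPRT -/- line, Stc2 (8.68) and Trib3 (10.18) stood close to the exon 2 mutant, and in wild-type cells (6.51 and 7.48) close to the trap line.

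The motif marked in the Chac1 sequence was searched on both strands in 300-base windows, from 250 bases before to 50 after each RefSeq start. It occurred in 8 of the 26 group members with a window (30.8%) and in 4.51% of 27025 genes. This is a count of letters and does not show that a factor is bound. The comparison covers all genes with a window, including genes not tested here. The group was listed for targets of ATF4, so its share of this motif is not a result of these arrays.

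The ER chaperone group, which is controlled by ATF6 and XBP1 and was included because Hspa5 is a reported TFII-I target, went mostly the other way. Of 23 genes, 12 were lower and 3 higher (median −0.19). Hspa5, the chaperone BiP, read 12.17 and 12.11 in the exon 2 mutant and 12.78 and 12.82 in the trap line (−0.66 ± 0.06, adjusted p = 0.000161). Dnajb9 (−0.70) and the disulphide isomerase Pdia3 (−0.52) were lower as well. Herpud1, a component of ER-associated degradation, was higher by 1.42 ± 0.05, and the oxidase Ero1a by 0.83 (0.52 on its most variable probe set). Among 22 partners and reported targets of TFII-I, 8 were higher and 4 lower, with a median of −0.01. The share that passed, 54.5%, was near the 49.2% of all genes, whose median was also −0.01. The histone methyltransferase Ezh2 (0.77) and the kinase Cit (0.66) were the highest, although 2 other Cit probe sets read −0.27 and −0.15, short of the threshold, and the mean of all was 0.22. Ccnd1 (−0.80), Myc (−0.72) and Kdr (−0.47) were lower.

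Genes of hypoxia and glycolysis were also mostly higher. These are largely targets of the hypoxia-inducible factors, which bind the core sequence ACGTG. Of 34 genes tested, 26 were higher and 5 lower, with a median of 0.62. Bnip3, which marks mitochondria for removal, read 11.70 and 11.79 in the exon 2 mutant and 9.53 and 9.44 in the trap line (2.26 ± 0.06, 4.78-fold, adjusted p = 4.79e-06). It was low in both other groups, at 9.61 in wild-type and 9.07 in the HPRT -/- line, so that the exon 2 mutant stood alone. The aldolase Aldoc (1.65), the stress gene Ddit4 (1.46), the carbonic anhydrase Car9 (1.49) and the lactate carrier Slc16a3 (1.36) were higher, the last 2 from trap line signals below the filter level. Mgarp, a mitochondrial transport protein that is induced by hypoxia, was at 8.49 and 8.47 against 5.63 and 5.81 (2.76 ± 0.08, 6.79-fold). Epas1, the hypoxia-inducible factor HIF-2 alpha, was lower (−0.93 ± 0.06).

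The 250 bases before the Bnip3 start are shown as the member of this group with the largest difference (GRCm38.p6, chr7:138909507-138909756, minus strand). The capitals mark 2 overlapping matches to ACGTGC, 1 on each strand, the first starting 109 bases before the start site.
Bnip3: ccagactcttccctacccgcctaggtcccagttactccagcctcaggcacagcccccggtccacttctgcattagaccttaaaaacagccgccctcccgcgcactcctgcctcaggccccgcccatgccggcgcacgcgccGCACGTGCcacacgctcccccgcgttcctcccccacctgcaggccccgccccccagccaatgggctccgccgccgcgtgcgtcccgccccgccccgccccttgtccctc
The motif ACGTGC, on either strand, was in 16 of the 31 group members with a 300-base window (51.6%) and in 6.68% of all 27025 genes. The same limits apply, since the group was listed largely for targets of these factors and all genes include ones not tested.

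Txnip, an arrestin that limits glucose uptake and binds thioredoxin, also differed widely, at 12.45 and 12.26 against 9.72 and 9.81 (2.59 ± 0.07, 6.02-fold). Its level in wild-type cells (10.61) and in the HPRT -/- line (11.39) lay between the mutants. The lysine-degrading enzyme Aass was set apart by the trap line instead: it read 9.56 and 9.65 in the exon 2 mutant, 8.87 in wild-type and 9.54 in the HPRT -/- line, but 7.24 and 7.18 in the trap line (2.39 ± 0.06).

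**Figure D3:**
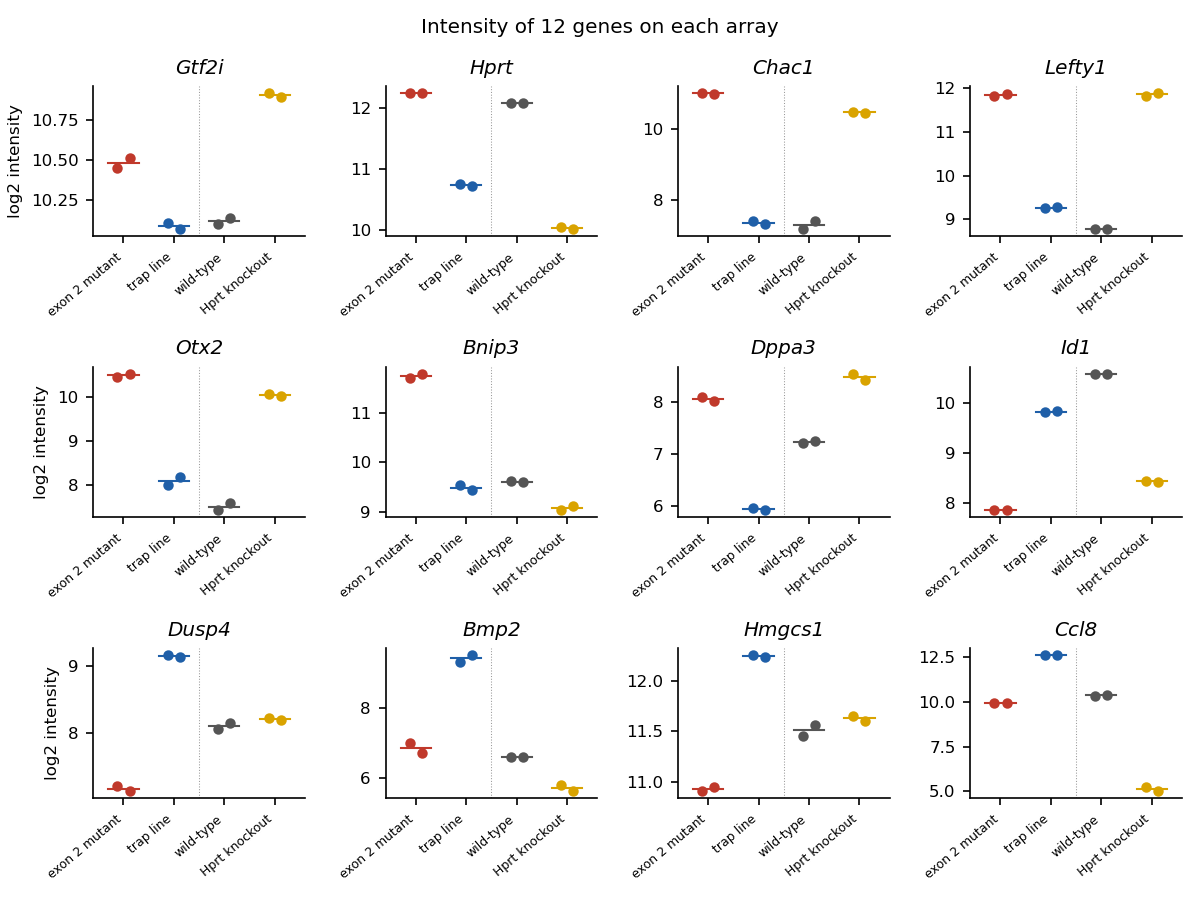
Log2 intensity (vertical axes, scaled separately for each gene and not starting at 0) of 12 genes on each of the 8 arrays. Points are single arrays, horizontal lines are means of 2 arrays, and the dotted line separates the 2 mutant lines compared from the wild-type and HPRT -/- arrays. For Chac1, Lefty1 and Otx2 the exon 2 mutant lies near the HPRT -/- line and the trap line near wild-type, whereas for Bnip3 the exon 2 mutant stands alone.

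Genes of the pluripotency network were divided between both directions. Of 30 tested, 10 were higher and 8 lower, and the median was 0.03. Dppa3, which protects the maternal genome from demethylation and marks naive ES cells and the early germ line, differed most, at 8.10 and 8.01 in the exon 2 mutant and 5.97 and 5.92 in the trap line (2.11 ± 0.06, 4.31-fold). It was lowest in the trap line among all 4 groups, with 7.22 in wild-type and 8.48 in the HPRT -/- line. Sall1 (0.75) and the methylcytosine dioxygenase Tet1 (0.56) were higher. The homeobox factor Gbx2 (−0.91), Fgf4 (−0.84) and the imprint-protecting zinc finger protein Zfp57 (−0.62) were lower.

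Markers of the primed epiblast were mostly higher. Of 18 tested, 11 were higher and 3 lower, with a median of 0.31. Otx2, the homeobox factor that drives the exit from the naive state, read 10.47 and 10.54 against 7.995 and 8.17 (2.42 ± 0.08, 5.37-fold, adjusted p = 6.57e-06). The HPRT -/- line was close to the exon 2 mutant at 10.06, and wild-type cells were below the trap line at 7.49. Zic5 was at 10.50 and 10.23 against 8.87 and 8.93 (1.46), Zic2 was higher by 1.22, and Lef1, a nuclear effector of Wnt, was at 9.07 and 8.79 against 7.45 and 7.37 (1.52). Foxd3, which restrains differentiation, was lower, at 7.02 and 6.72 against 8.64 and 8.74 (−1.82). The DNA methylation and Polycomb group had 14 of 30 higher and 6 lower (median 0.13, or 0.06 with the mean of probe sets), led by Dnmt3l (1.04 ± 0.05), the cofactor of the de novo methyltransferases, and Uhrf1 (0.91 ± 0.05), which brings the maintenance methyltransferase to replicated DNA. Pcgf1, a Polycomb subunit, was lower (−0.48), a call lost without exon 2 mutant replicate 1 (adjusted p = 0.0678) or trap replicate 1 (0.0756).

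Of 19 genes of the Nodal and activin group, 9 were higher and 4 lower (median 0.17). Lefty1, a secreted Nodal antagonist that Nodal itself induces, read 11.82 and 11.88 in the exon 2 mutant and 9.27 and 9.28 in the trap line (2.58 ± 0.05, 5.97-fold, adjusted p = 3.54e-06). Its level was 11.87 in the HPRT -/- line and 8.78 in wild-type cells. Lefty2, its neighbour and homologue, was at 9.63 and 9.54 against 7.88 and 7.91 (1.69 ± 0.06), but here the HPRT -/- line was low as well, at 7.60. The SMAD co-repressor Skil (1.06, or 0.61 with the mean of its probe sets) and the SMAD partner Foxh1 (0.87) were higher. The inhibin and activin subunit Inhbb was lower (−1.14, or −0.70 with the mean of its probe sets).

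Of 23 BMP genes and Id targets tested, 10 were lower in the exon 2 mutant, 1 was higher and 12 did not pass, with a median of −0.30. The share that passed, 47.8%, was close to the 49.2% of all genes. Id1, an inhibitor of basic helix-loop-helix factors and a direct BMP target, read 7.85 and 7.86 in the exon 2 mutant and 9.81 and 9.83 in the trap line (−1.97 ± 0.05, 3.91-fold lower, adjusted p = 3.54e-06). Id2 (−1.41) and Id3 (−1.01) went the same way. The ligand Bmp2 was at 6.99 and 6.71 against 9.32 and 9.51 (−2.56 ± 0.11). Wild-type cells, at 6.60, were near the exon 2 mutant for Bmp2, but for Id1, at 10.57, they were above the trap line. The antagonist Grem1 was also lower (−2.07). Grem1 was at 5.98 in the HPRT -/- line, whose feeder markers were lowest, and at 9.35 or above on all other arrays. In wild-type cells, whose feeder markers were highest, Grem1 was at 10.73, against 11.45 in the trap line. Smad1 was the member that was higher (0.30), and its call was lost without exon 2 mutant replicate 1 (adjusted p = 0.154) or trap replicate 1 (0.174).

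In the TGF-beta group 9 of 17 were lower and 3 higher (median −0.15). The receptors Tgfbr2 (−0.92) and Tgfbr3 (−0.86) and the latency protein Ltbp3 (−0.53) were lower. All 3 were lowest in the HPRT -/- line, at 6.91, 7.54 and 8.08, with wild-type cells at 10.89, 10.59 and 10.80. The matricellular gene Ccn2 (0.92), which is also a feeder marker, and the repressor Tgif2 (0.52) were higher. On its most variable probe set Tgif2 read 0.23 and did not pass (adjusted p = 0.202).

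Of 22 genes in the FGF and ERK feedback group, which holds ligands, receptors and feedback inhibitors of the pathway, 12 were lower and 2 higher, with a median of −0.26. The ERK phosphatase Dusp4 read 7.22 and 7.14 in the exon 2 mutant and 9.16 and 9.13 in the trap line (−1.96 ± 0.06, 3.9-fold lower, adjusted p = 4.81e-06). Dusp6 was at 9.70 and 9.62 against 10.65 and 10.79 (−1.06), and the Ras pathway inhibitor Spry4 at 7.76 and 7.33 against 9.01 and 9.23 (−1.57, or −0.72 with the mean of its probe sets). The exon 2 mutant was the lowest of the 4 groups for each of these, with wild-type at 8.11, 10.34 and 9.47 and the HPRT -/- line at 8.21, 10.22 and 8.68. The ligand Fgf4 (−0.84) and the FGF carrier Fgfbp1 (−1.33) were lower. Fgfr4 passed the threshold narrowly in the higher direction (0.30, adjusted p = 0.0482, with a mean of probe sets of 0.13), and its call was lost without exon 2 mutant replicate 2 (adjusted p = 0.212), trap replicate 1 (0.135) or trap replicate 2 (0.151).

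Immediate early genes were lower in 9 of 23 cases and higher in 5 (median −0.15). The growth factor response genes Egr1 (8.47 and 8.51 against 9.60 and 9.56, −1.09) and Nr4a1 (−1.01) and the proto-oncogene Myc (−0.72) were lower, and all 3 were highest in wild-type cells, at 11.48, 10.49 and 9.98. Klf10, a zinc finger gene induced by TGF-beta, went the other way, at 11.05 and 10.98 against 8.89 and 8.96 (2.09 ± 0.06, 4.27-fold), as did the stress factor Atf3 (1.06).

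The LIF and STAT3 group had 3 of 16 higher and 3 lower, with a median of −0.09. The share that passed, 37.5%, was below the 49.2% of all genes. The kinase Pim1 was at 10.14 and 10.22 against 8.80 and 8.71 (1.43 ± 0.06), whereas Jak1 (−0.72), Pim3 (−0.32) and Lif (−0.31) were lower. The receptor Lifr was called higher (0.36), but its 2 other tested probe sets read −0.35 and −0.08, and the call was lost without exon 2 mutant replicate 1 (adjusted p = 0.142), trap replicate 1 (0.16) or trap replicate 2 (0.0662). The Pim3 call was lost without trap replicate 1 (adjusted p = 0.0618) and on its most variable probe set (−0.18, adjusted p = 0.346). PI3K-AKT genes had 8 of 32 higher and 6 lower (median 0.01, which changed sign under cyclic loess), a share of 43.8%, also below that of all genes. The transcription factor Foxo1 (0.93) and the phosphatase Inpp5d (0.67) were higher, and the regulatory subunits Pik3r1 (−0.85) and Pik3r3 (−0.83) were lower.

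Of 30 Wnt genes tested, 7 were higher and 6 lower (median −0.08), a share of 43.3% against 49.2% of all genes. The repressor Tcf7l1 was at 10.37 and 10.34 against 9.41 and 9.42 (0.94 ± 0.05). The agonist Rspo2 (1.65), the antagonist Dkk2 (−2.01) and the ligand Wnt5a (−1.82) differed most. These 3 were lowest in the HPRT -/- line, at 4.46, 4.53 and 6.72, where feeder markers were lowest as well. In wild-type cells, where feeder markers were highest, they stood at 11.12, 6.13 and 9.27. Another Rspo2 probe set read −0.05, and the mean of both was 0.80.

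**Figure D4:**
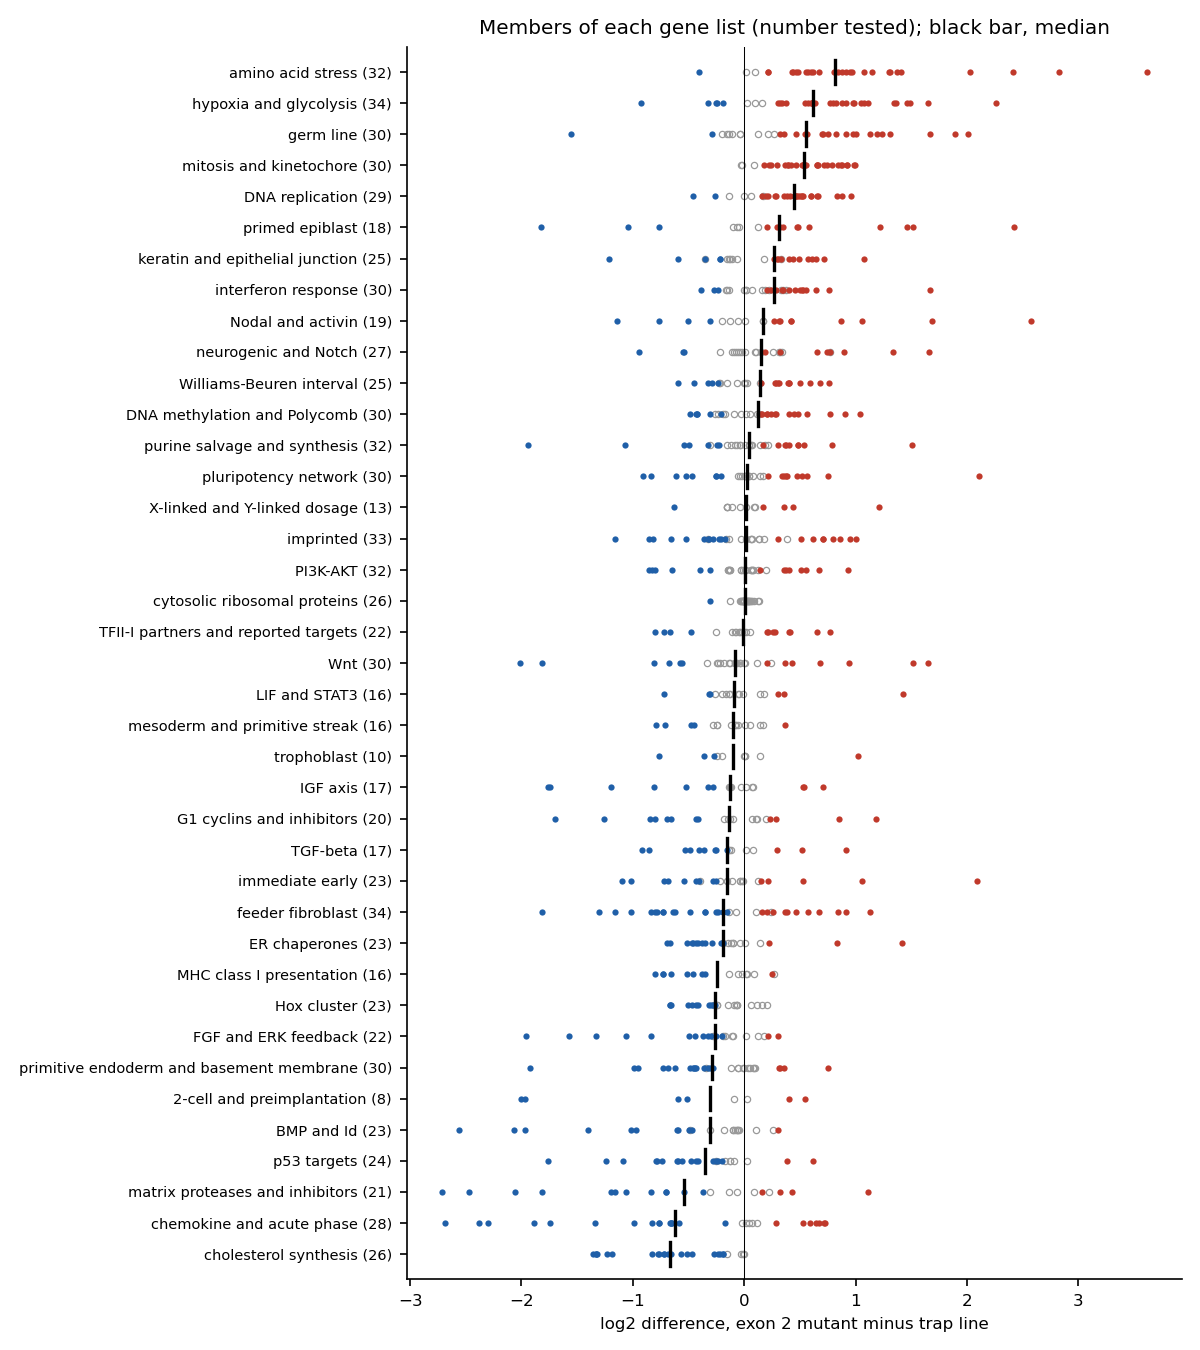
Log2 difference between the exon 2 mutant and the trap line (horizontal axis) for the tested members of 39 gene lists, ordered by the median of the list, with the number tested in brackets. Filled red and blue points passed an adjusted p of 0.05 in the higher and lower direction, open grey points did not, and black bars are medians, from 0.82 for amino acid stress to −0.66 for cholesterol synthesis.

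Cell cycle genes were higher as groups, by modest amounts. In mitosis and the kinetochore, 27 of 30 were higher and none lower (limma; 0 also at an unadjusted p under 0.05; the remaining 3 lay between −0.03 and 0.09), with a median of 0.54. The kinetochore protein Cenpf read 10.73 and 10.79 against 9.77 and 9.77 (0.99 ± 0.05), and the spindle gene Prc1 10.70 and 10.81 against 9.75 and 9.79 (0.99). Aurka, Cenph (both 0.93) and Ndc80 (0.88) followed. In DNA replication, 23 of 29 were higher and 2 lower (median 0.45). The licensing factor Cdc6 was at 9.79 and 9.82 against 8.87 and 8.82 (0.96), and Rfc4 (0.88), Mcm10 (0.83, or 0.39 with the mean of its probe sets), Gins3 (0.66, likewise 0.44) and Pole (0.65) were higher. Fen1, the flap endonuclease of lagging strand synthesis, was lower (−0.46). The median level of the mitosis group was 10.76 in the exon 2 mutant, 10.12 in the trap line, 10.12 in wild-type and 10.93 in the HPRT -/- line. For DNA replication the levels were 10.88, 10.66, 10.71 and 11.15, in the same order. Feeder markers were lowest in the HPRT -/- line and highest in wild-type cells, and the part of feeder RNA in these differences was not tested.

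Among 20 G1 cyclins, inhibitors and pocket proteins, 8 were lower and 4 higher (median −0.14). The inhibitors Cdkn2a (8.40 and 8.69 against 10.33 and 10.16, −1.70) and Cdkn2b (−1.26) and the cyclins Ccnd2 (−0.84) and Ccnd1 (−0.80) were lower. All 4 were lowest in the HPRT -/- line, at 6.76, 8.38, 8.96 and 10.38, as the feeder markers were. In wild-type cells, where feeder markers were highest, they stood at 9.49, 10.40, 12.66 and 11.96. The part of feeder RNA was not tested. Cdkn1b was higher, at 9.54 and 9.34 against 8.03 and 8.48 (1.18), and so was Rbl1 (0.85, or 0.39 with the mean of its probe sets). Lockd, a long noncoding RNA next to Cdkn1b, was higher by 2.15, from a trap line signal below the filter level.

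Targets of p53 were mostly lower: 16 of 24, with 2 higher and a median of −0.35. Perp, a desmosomal protein in p53-dependent death, read 8.39 and 8.15 in the exon 2 mutant and 9.98 and 10.08 in the trap line (−1.76 ± 0.09, 3.39-fold lower). The death receptor Fas (−1.24), Dcxr (−1.09), Ccng1 (−0.79) and Pmaip1 (−0.79) were lower. For Perp the HPRT -/- line (9.91) was near the trap line, whereas Fas was lowest there, at 6.04.

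Cholesterol and fatty acid synthesis, the target set of the SREBP transcription factors, was lower in the exon 2 mutant in 22 of 26 cases. No member was higher (limma; 0 also at an unadjusted p under 0.05; the other 4 lay between −0.16 and 0.00), and the median was −0.66, the lowest of the 39 lists. With the mean of a gene's probe sets it was −0.53, and matrix proteases were lower, at −0.67. Hmgcs1, which makes HMG-CoA for the mevalonate pathway, read 10.90 and 10.94 against 12.26 and 12.24 (−1.33 ± 0.06, 2.51-fold lower, adjusted p = 1.35e-05). Msmo1 was at 9.68 and 9.61 against 10.96 and 11.05 (−1.36, or −0.89 with the mean of its probe sets), and Idi1 at 9.31 and 9.37 against 10.62 and 10.70 (−1.32). The desaturase Scd1 (−1.33) and the sterol reductase Hsd17b7 (−1.23) were lower. Wild-type cells lay between the mutants for Hmgcs1 (11.51), Msmo1 (10.17) and Idi1 (9.67).

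The 250 bases before the Hmgcs1 start are shown because its sterol response is a textbook case and it stood for a group that was lower almost throughout (GRCm38.p6, chr13:119690101-119690350, plus strand). The capitals mark a match to TCACNCCA, a form of the sterol regulatory element, starting 137 bases before the start site.
Hmgcs1: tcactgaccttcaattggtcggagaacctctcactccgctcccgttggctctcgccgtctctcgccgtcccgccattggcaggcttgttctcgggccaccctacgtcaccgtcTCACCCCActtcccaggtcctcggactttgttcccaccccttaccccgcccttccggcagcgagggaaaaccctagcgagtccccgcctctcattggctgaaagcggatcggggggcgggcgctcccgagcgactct
On either strand the motif was in 3 of the 20 group members with a 300-base window (15%) and in 4.97% of all 27025 genes, so most members did not hold these letters there. For comparison, TTTGAA, the cell cycle homology region found in mitotic promoters, was in 18 of 25 mitosis and kinetochore members (72%) and in 20.2% of all genes. In both counts, all genes again include ones not tested. The groups were listed for targets of SREBP and for mitosis, so these shares too are not a result of these arrays.

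Purine genes, listed because the trap line lacks Hprt by its label, were divided, with 10 of 32 higher and 7 lower (median 0.04, which changed sign with the mean of probe sets). Beside Hprt, the synthetase-associated Prpsap2 was higher (0.79). The catabolic enzymes Gda (8.35 and 8.29 against 10.30 and 10.22, −1.94 ± 0.07) and Xdh (−1.07) and the phosphorylase Pnp (−0.54) were lower. Gda and Xdh were lowest in the HPRT -/- line, at 5.25 and 4.35, as the feeder markers were. Another Gda probe set read 8.13 in the exon 2 mutant, 10.03 in the trap line, 8.98 in wild-type and 4.78 in the HPRT -/- line. The part of feeder RNA in the Gda and Xdh signals was not tested.

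Germ line genes were mostly higher: 19 of 30, with 2 lower and a median of 0.55. The X-linked testis genes Tex11 (2.01) and Tex13b (1.90) rose from trap line signals below the filter level, so that their size depends on the floor of the array. Slc25a31, a nucleotide carrier of sperm mitochondria, read 10.25 and 10.08 against 8.57 and 8.43 (1.67 ± 0.08), and the helicase Ddx4 7.02 and 6.72 against 5.53 and 5.59 (1.31). For Slc25a31 the trap line was the lowest group, with wild-type at 9.86 and the HPRT -/- line at 9.91. Kitl, the ligand of the Kit receptor, was lower (−1.55). Outside the lists, the transcription factor Myb was at 8.46 and 8.23 against 5.79 and 5.77 (2.56 ± 0.19) and the autoimmune regulator Aire at 8.74 and 8.85 against 6.66 and 6.45 (2.23 ± 0.09).

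Epithelial junction and keratin genes had 12 of 25 higher and 5 lower (median 0.27, or 0.17 without the filter). E-cadherin, Cdh1, was at 11.61 and 11.49 against 10.87 and 10.93 (0.65 ± 0.06), and occludin, Ocln, was higher by 1.08. Krt19 (0.61) and Marveld2 (0.72, below the filter level in both lines) were also higher. Krt8, at 6.39 and 5.86 against 7.33 and 7.35 (−1.22), and Cldn4 (−0.60) were lower, and both were highest in the HPRT -/- line, at 10.18 and 10.34. Neurogenic and Notch genes had 8 of 27 higher and 3 lower (median 0.15, or 0.10 without the filter), a share of 40.7% against 49.2% of all genes. The eye and brain factor Pax6 was higher (1.66, trap line below the filter level, or 0.88 with the mean of its probe sets). The neurofilament Ina (1.34), Zic1 (0.89) and the Notch ligand Jag1 (0.77, or 0.33 with the mean of its probe sets) were higher, and Neurod1 was lower (−0.94).

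Primitive endoderm and basement membrane genes were lower in 15 of 30 cases and higher in 4 (median −0.29). Sox7, an endodermal transcription factor, read 5.87 and 5.70 in the exon 2 mutant and 7.73 and 7.68 in the trap line (−1.92 ± 0.09, 3.78-fold lower), and was between them in wild-type (6.75) and in the HPRT -/- line (6.80). The endocytic adaptor Dab2 was lower (−0.99), although a second, dim Dab2 probe set read 0.02 and the mean of its probe sets was −0.56. Plat (−0.96, or −0.54 with the mean of its probe sets) and Nid1 (−0.73) were lower too, and the endocytic receptor Lrp2 was higher (0.76).

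The largest difference in the lower direction was in the collagenase Mmp1a, which was at 8.86 on both trap line arrays and at 3.99 and 4.67 in the exon 2 mutant, below the filter level there (−4.53 ± 0.19, adjusted p = 1.37e-05). It was low in wild-type cells (4.74) and in the HPRT -/- line (3.38), so that the trap line stood alone. Vstm2a and Calb1 had the same pattern, at 6.94 and 7.02 and at 7.07 and 6.98 in the trap line and at or below 5.17, under the filter level, on every other array. The leukocyte tetraspanin Cd53 (5.99 and 5.89 against 9.53 and 9.56, −3.60), the neutrophil and stress protein S100a8 (−3.37, exon 2 mutant below the filter level), the melanosomal and macrophage glycoprotein Gpnmb (−2.76) and Bmp2 were also highest in the trap line. For Olr1 (−3.03), the receptor for oxidised lipoprotein, and Ctla2a (−2.98), wild-type cells stood nearer the trap line, at 8.41 and 8.77. Spink1 (−2.57), a trypsin inhibitor, was highest in the HPRT -/- line, at 9.81. Of the blood or macrophage markers, Ptprc was below the filter level, at 3.62 and 3.86 in the exon 2 mutant and 3.75 on both trap line arrays. Lyz2 (−0.95), Adgre1 (−0.50) and Cd68 (−0.35) were lower in the exon 2 mutant, and Csf1r differed by 0.01. Whether blood cells contributed was not tested.

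The matrix protease group had 12 of 21 lower and 4 higher, with a median of −0.54. Mmp10 was at 6.97 and 7.11 against 9.51 and 9.52 (−2.47), the urokinase Plau at 7.62 and 7.47 against 9.54 and 9.65 (−2.06), and the inhibitors Serpinb2 (−2.71, exon 2 mutant below the filter level), Timp3 (−1.82) and Timp2 (−1.19) were lower. Adamts5 was higher (1.11). Mmp10, Plau, Serpinb2, Timp3, Timp2 and Adamts5 were lowest in the HPRT -/- line, at 5.75, 5.24, 3.03, 7.57, 7.92 and 5.56. In wild-type cells these matrix genes stood at 7.13, 9.42, 7.57, 11.24, 13.07 and 9.96. Timp3 is itself on the feeder marker list, and the part of feeder RNA in the matrix genes was not tested. Chemokine and acute phase genes had 16 of 28 lower and 7 higher (median −0.62, or −0.38 with the mean of probe sets). Ccl8 read 9.92 and 9.96 against 12.64 and 12.61 (−2.69 ± 0.08, 6.44-fold lower), Ccl11 7.23 and 7.11 against 9.47 and 9.63 (−2.38), and the iron-binding Lcn2 8.47 and 8.30 against 10.65 and 10.73 (−2.30). Hp (−1.89) and Steap4 (−1.75) were lower, and Cxcl9 was higher (0.73). Ccl8, Ccl11, Lcn2, Hp and Steap4 stood between 4.15 and 5.60 in the HPRT -/- line, where the feeder markers had a mean of 7.71 to 7.76. In wild-type cells, where that mean was highest at 12.08 and 12.09, they stood at 10.38, 7.66, 10.91, 10.61 and 10.08. The part of feeder RNA in these levels was not tested.

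Interferon response genes went the other way from the chemokines, with 14 of 30 higher and 3 lower (median 0.27). The antiviral genes Oasl1 (8.70 and 8.56 against 6.998 and 6.92, 1.67 ± 0.12), Rsad2 (0.76), Oas1a (0.64) and Trim30a (0.55) were higher and Ifitm2 was lower (−0.39). Usp18 was higher by 0.53, a call lost without exon 2 mutant replicate 2 (adjusted p = 0.0575), trap replicate 1 (0.0591) or trap replicate 2 (0.0582). MHC class I presentation had 8 of 16 lower and 1 higher (median −0.25): B2m was at 12.91 and 12.84 against 13.63 and 13.73 (−0.80), with H2-D1 (−0.73), the transactivator Nlrc5 (−0.73), H2-K1 (−0.65) and Pdia3 (−0.52) lower. The immunoproteasome subunit Psmb9 was higher (0.25), a call lost without exon 2 mutant replicate 1 (adjusted p = 0.0713) or trap replicate 2 (0.106). Of 23 Hox genes, 11 were lower and none was higher (limma; 0 also at an unadjusted p under 0.05; the highest member differed by 0.20), with a median of −0.26 (−0.16 with the mean of probe sets). The share of Hox genes that passed, 47.8%, was close to the 49.2% of all genes. The Hox group was led by Hoxa10 (−0.67), Hoxb6 (−0.66) and Hoxa11 (−0.66). Calls for Hoxc8 (−0.47) and Hoxd8 (−0.50) were lost without single arrays, Hoxd8 without trap replicate 2 (adjusted p = 0.0514) and Hoxc8 without any of the 4 (0.0614 to 0.153). Oas1a, B2m and Hoxa10 stood at 8.33, 10.31 and 4.25 in the HPRT -/- line, the lowest of the groups in each case, as for the feeder markers. In wild-type cells, where feeder markers were highest, they stood at 11.42, 13.43 and 6.58.

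The genes with a difference of at least 2-fold were then placed beside the other groups, as levels and with no test. Of the 257 higher in the exon 2 mutant, wild-type cells were within 0.5 of the trap line alone in 161 (62.6%) and of the exon 2 mutant alone in 34 (13.2%). Of the 296 lower in the exon 2 mutant, wild-type cells were within 0.5 of the trap line alone in 82 (27.7%), of the exon 2 mutant alone in 117 (39.5%), and between them at over 0.5 from both in 76 (25.7%). By the same measure, the HPRT -/- line was within 0.5 of the exon 2 mutant alone in 133 (51.8%) of the higher and 81 (27.4%) of the lower genes. It was within 0.5 of the trap line alone in 53 (20.6%) and 33 (11.1%). By the looser measure of the nearer line, at any distance, it was nearer the exon 2 mutant in 172 (66.9%) and 238 (80.4%). Of the lower genes, it was below the exon 2 mutant by over 0.5 in 149 (50.3%). Feeder markers were lowest in the HPRT -/- line, and the part of feeder RNA in these placements was not tested.

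Cytosolic ribosomal proteins were listed for comparison and were not used for scaling. Their median level was 14.24 in the exon 2 mutant and 14.25 in the trap line. The highest value on an array was 15.03 to 15.09, so these genes stood near the top of the scale. Whether this limits their differences was not tested. Of 26, Rpl14 was lower (−0.31, a call lost without trap replicate 1 at an adjusted p of 0.0594) and the others did not pass, with a median of 0.01 whose sign changed under cyclic loess. Their share past the threshold, 3.85%, compares with 49.2% of all genes.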

How the data were processed

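The authors deposited log2 intensities of 45101 probe sets per array, made with RMA per the submitters' processing notes; the sources used here give no version. RMA makes the array distributions alike, so a shift of most genes is not visible. Column medians were 5.96 to 6.02. Probe sets with 1 gene symbol (34945) were reduced to 18193 genes by the highest mean over 8 arrays, and a gene was tested above the 40th percentile (mean level 5.35, "filter level") on at least 2 arrays. limma 3.58.1 in R 4.3.3 fitted 4 group means to all 8 arrays (4 residual degrees of freedom, 6.86 after moderation; two-sided p, Benjamini-Hochberg over 13819 genes, threshold 0.05), as tested on simulated data; with 2 arrays a line the smallest exact permutation p is 0.333. The number of arrays limits the precision.

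The members and gene lists were chosen with earlier results of these data known. Named genes are the targeted genes and paralogues, the 12 largest differences in each direction with named genes and no overlap of arrays, up to 5 called members per list with the largest in the other direction, and defining members and markers. Feeder collagens, Lum, Prrx1 and other markers come from fixed marker lists. Alternatives were other scalings, filters, probe set rules, fits and leaving out each array. Of 189 other tested probe sets of the named genes, 175 had the same direction. Probe sets naming several genes (932) or no gene (9160) stayed out. Promoter windows and chromosomes are RefSeq's, GRCm38.p6.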

Additional observations from a re-analysis of the deposited data

How the results depend on the processing

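The counts over all genes and the differences of Gtf2i and Hprt kept their side of the threshold under all 15 alternative settings, with counts within 1.5 times of those reported. The number of genes past the threshold ran from 5247 to 5982 when 1 array was left out and from 6259 to 7276 otherwise. With the replicate number as a block (replicate block) 6333 genes passed, and with the numbers of the exon 2 mutant crossed, a pairing added after the deviations of same-numbered arrays were seen to correlate at −0.275, 6646 did; the labels do not say that a number marks a batch. The replicate block ended the calls of Smad1 (adjusted p = 0.054), Fgfr4 (0.0671), Lifr (0.052), Kdm6a (0.0549) and Ddx3x (0.0593). Of 208 named genes past the threshold, 186 stayed past it under every setting, and the other 22 lost their call 71 times in all. The medians of the 39 lists were also taken under cyclic loess, with the mean of probe sets and without the filter. Counted as pairs of a list and a setting, most of these medians (64) moved by more than the spread between arrays. The sign turned for Gtf2ird1 with the mean of probe sets (−0.0015). For Gtf2ird2 it turned under cyclic loess (−0.0258) and without trap replicate 1 (−0.0586, with 0.0785 without trap replicate 2). For Lifr it turned with the mean of probe sets (−0.0236) and the most variable probe set (−0.347), and for Usp9x with the most variable probe set (−0.0535). The means average the main probe set with the others, whereas the most variable probe sets of Lifr and Usp9x are other probe sets. For Gtf2ird2 the cause was not tested. Cyclic loess moved the median of all genes from −0.01 to −0.04 and the share of calls that were higher from 49.8% to 44.6%. With 2 arrays a group, differences of dim genes are the least certain, and those with 1 line below the filter level depend on the floor of the array.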

Other observations

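Imprinted genes were divided between both directions, with 9 of 33 higher and 12 lower and a median of 0.01 that changed sign under cyclic loess. The noncoding RNA Kcnq1ot1 read 8.95 and 9.10 in the exon 2 mutant and 8.07 and 7.98 in the trap line (1.00 ± 0.07), and Ddc (0.95) and Nap1l5 (0.86) were higher. Airn, the noncoding RNA at Igf2r, was at 7.68 and 7.67 against 8.46 and 8.60 (−0.85, or −0.35 with the mean of its probe sets). Ascl2 (−0.36) lost its call without exon 2 mutant replicate 1 (adjusted p = 0.16) or trap replicate 1 (0.176). In the insulin-like growth factor axis 7 of 17 were lower and 3 higher (median −0.13): Igf1 (−1.76), Igfbp3 (−1.74), Igfbp6 (−1.20) and Igfbp4 (−0.81) were lower and the RNA-binding protein Igf2bp1 was higher (0.71, or 0.40 with the mean of its probe sets). These 4 lower genes stood at 4.99, 7.96, 6.17 and 9.42 in the HPRT -/- line, the lowest of the groups, as were the feeder markers. In wild-type cells, where feeder markers were highest, they stood at 8.42, 11.05, 7.20 and 11.20.

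Of 8 genes of the 2-cell and preimplantation stages, 4 were lower and 2 higher (median −0.30, or −0.10 over the 14 measured without the filter). Pramel6 was at 7.50 and 7.19 against 9.37 and 9.33 (−2.01), and Arg2 (−1.97, exon 2 mutant below the filter level), Pramel7 (−0.60, or −0.40 with the mean of its probe sets) and Eif1a (−0.51) were lower, whereas Calcoco2 was higher (0.55). Of 16 mesoderm and primitive streak genes, 4 were lower and 1 higher (median −0.10), a share of 31.2% against 49.2% of all genes. Hand2 was at −0.79 and Snai1 at −0.45. The calls of Evx1 (−0.71) and Snai2 (0.36) depended on single arrays. Evx1 read −0.59 without exon 2 mutant replicate 1 and −0.47 without trap replicate 2. Snai2 read 0.31 and 0.33 without these arrays and 0.39 without trap replicate 1. Of 10 trophoblast genes, 1 was higher and 3 lower (median −0.10, which changed sign without the filter), a share of 40%, also below that of all genes. Tfap2c was higher (1.02), and Lgals3 (−0.76) and Ets2 (−0.27) were lower. The Ets2 call depended on trap replicate 1, without which it read −0.23. With the mean of its probe sets the Ets2 call was lost (−0.18, limma, adjusted p = 0.054).

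Xist, the RNA that coats the inactive X chromosome, was at 11.85 and 11.78 in the exon 2 mutant and 10.57 and 10.64 in the trap line (1.21 ± 0.06). Its level was 11.86 in wild-type and 8.86 in the HPRT -/- line. The mean of the feeder markers was 11.23 and 11.26 in the exon 2 mutant and 11.43 and 11.44 in the trap line. In wild-type cells it was 12.08 and 12.09, and in the HPRT -/- line 7.76 and 7.71. The part of feeder RNA in the Xist signal was not tested. Of 13 X-linked and Y-linked dosage genes, 4 were higher and 1 lower, with a median of 0.01 whose sign changed under 3 settings. The share that passed, 38.5%, was below the 49.2% of all genes. Usp9x (0.35) had 5 other probe sets: 1 read 0.23 (adjusted p = 0.0352 in the fit of all probe sets), 1 read 0.0002 and 3 lay between −0.15 and −0.05, and with the mean of its probe sets (0.05, adjusted p = 0.782) the call was lost. Ddx3x (0.17), Kdm6a (0.44) and the Y-linked Uty (−0.63) each lost their call without single arrays: Ddx3x without exon 2 mutant replicate 1 (adjusted p = 0.135), trap replicate 1 (0.158) or 2 (0.0695), Kdm6a without exon 2 mutant replicate 1 (0.159) or trap replicate 1 (0.184), and Uty without exon 2 mutant replicate 2 (0.131) or trap replicate 2 (0.126). Of 452 X-linked genes tested, 53.8% passed the threshold, and the median difference of each autosome and of X lay between −0.04 and 0.03.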
